A study of Mus musculus with 6 samples.

Results

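Interstitial macrophage endocytic receptors are here 9 genes with which resident macrophages of tissue spaces bind and take up ligands. They comprise the lectins Mrc1 and Cd209f, the hyaluronan receptor Lyve1, the scavenger receptors Stab1 and Cd163, the folate receptor Folr2, the phosphatidylserine receptor Timd4, the adaptor Dab2 and the transporter Slco2b1. They were found by name and are 9 of 31473 gene names of the array, with 10 of its 39429 probes. The genes were chosen by their treated over mock ratios, channel levels and background marks in both tissues, with earlier results of these arrays known, so those values are given as a description, and no test of them is used as support. Dab2 encodes a cytoplasmic adaptor and Slco2b1 a membrane transporter, so the word receptor holds for the other 7.

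Macrophages that live in a tissue clear proteins, lipids, hyaluronan and dying cells from the fluid around them. A receptor binds its cargo at the surface, adaptors gather it into clathrin-coated pits, and the vesicle fuses with an early endosome, from which many receptors return to the surface. In the mouse lung, interstitial macrophages lie around vessels, airways and nerves, and those rich in Mrc1, Lyve1 and Folr2 are known as a perivascular type, apart from the alveolar macrophages of the air spaces.

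The arrays measured RNA of monocytic myeloid-derived suppressor cells (M-MDSCs), monocyte-like cells that restrain T cells, which were isolated by fluorescence-activated sorting from lungs or bone marrow of C57BL/6 mice. Treated lung and treated marrow cells came from mice given azacytidine, which blocks DNA methyltransferases, and entinostat, which blocks class I histone deacetylases, and each treated RNA was a pool of 3 to 6 mice. Mock lung and mock marrow cells came from vehicle mice aged 6 to 8 weeks, with 1 to 2 mice behind each RNA. The labels give no age for treated mice. Each tissue had 3 dual-colour arrays, labelled as biological replicates, with treated RNA in Cy5 and mock RNA in Cy3 on every array. Dye and treatment cannot be told apart, since no array had the dyes exchanged, and tissue and slide cannot be told apart, since each tissue lay on 1 slide and scan of its own. In such bulk RNA, fewer cells of a type and less RNA per cell cannot be told apart.

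The median lung spot signal was 144.1 to 151.8 intensity units in the treated channel and 71.6 to 80.1 in the mock channel. On the marrow arrays it was 107.1 to 123.4 in the treated channel and 94.6 to 100.9 in the mock channel. The channels thus lay farther apart in lung, and whether through dye or treatment was not tested. The corrected signal of negative control spots in the treated channel was 240.3 on marrow replicate 1 and 87.0 on lung replicate 2. It was lower on the other arrays, and its part in the ratios was not tested. Across the 6 arrays no spot was saturated. Between 55.1% and 69.5% of spots were well above background in the treated channel, against 49.9% to 62.8% in the mock channel. A probe was tested when the scanner software marked it well above background on at least 2 arrays of 1 tissue and channel, which left 27726 probes and 22127 genes. Of the 9 members, 8 passed, each of them in the lung groups, where it is high. The exception was Cd163, whose probe was not well above background on any array in either channel. Log2 ratios are treated over mock, following the dyes in the labels. The authors' matrices are headed as mock over treated, the opposite direction, but hold Cy5 over Cy3 in their values. With 3 arrays a tissue, precision is limited by that number.

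In treated lung cells 7 of the 9 members were 3.86-fold to 7.44-fold higher than in mock lung cells, on all 3 arrays each. Dab2 had the highest mean log2 ratio of the set, 2.90 ± 0.13 (SD, n = 3), followed by Mrc1 at 2.78 ± 0.64 and Slco2b1 at 2.72 ± 0.54. Timd4 averaged 0.00 ± 1.48 in lung, with arrays on both sides of 0. In treated marrow cells the ratios of all 9 members lay between -0.35 and 0.28, and 5 of them were not well above background on any marrow array in either channel. The median over all 9 members was 3.03, 2.26 and 1.86 on the lung arrays, a mean of 2.39 ± 0.60 (SD, n = 3), where the median of all genes tested averaged 0.02. On the marrow arrays it averaged 0.01 ± 0.03 (SD, n = 3), and that of all genes tested 0.02.

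Of the 8 tested members, 7 were called higher in lung at an adjusted p under 0.05 (limma, Benjamini-Hochberg over all genes tested), where 19.9% of genes tested were called higher and 14% lower. In marrow 1 member, Dab2, was called higher, where 7.25% of genes tested were called higher and 7.12% lower. The members entered the fit with all other genes, and the rule that chose them used these contrasts, so nothing is read from either count. By mean lung ratio among the 22127 genes, Dab2 ranked 3, Mrc1 5, Slco2b1 7, Lyve1 9, Folr2 10, Cd209f 12 and Stab1 56, while Timd4 ranked 11448. Centring each array on its median in place of loess left 963 calls over all genes in lung, 890 higher and 73 lower, and 0 in marrow, where 3954 genes had an unadjusted p under 0.05.

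**Figure D1:**
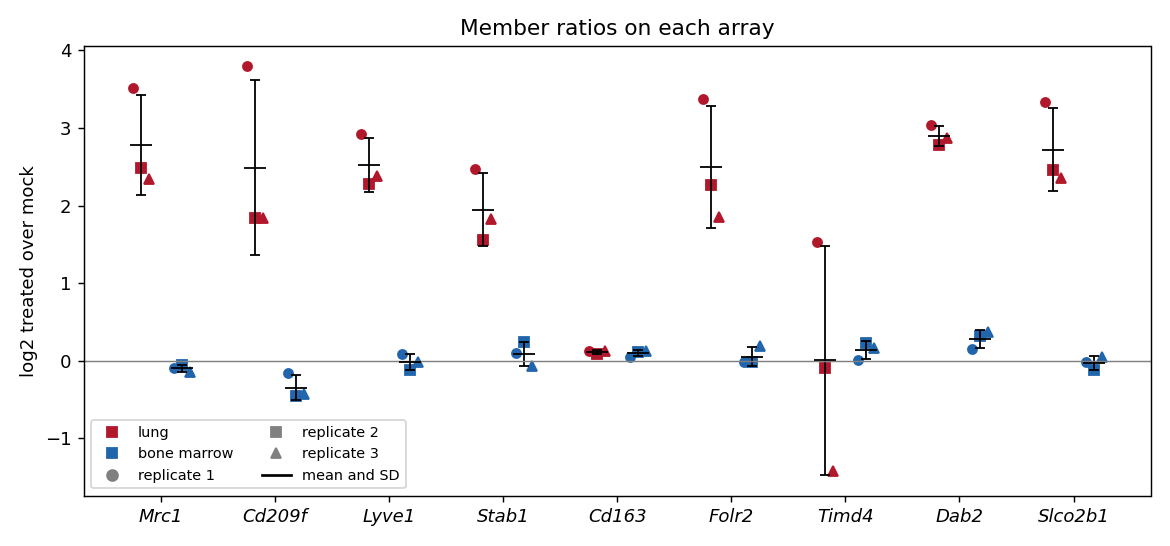
Log2 ratio of treated over mock (vertical axis) for each member (horizontal axis), with lung in red left of bone marrow in blue. Symbols are the 3 arrays of a tissue and the black bar with whiskers is their mean and SD. In lung 7 members lie between 1.55 and 3.79 on every array, Timd4 spans -1.43 to 1.53, and Cd163, not above background, stays near 0. In marrow no array of any member exceeds 0.37 or falls below -0.45.

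Azacytidine acts on methylation of cytosine next to guanine (CpG), so the start regions of the genes are shown with their CpG count. RefSeq's table of windows of 300 bases around gene starts (250 before and 50 after, build GRCm38.p6) held 12 windows for 8 members and none for Lyve1. The 12 windows had a median of 3.5 CpG and a range from 2 to 19, against a median of 7 and quartiles of 3 and 20 over all 32851 windows. The arrays measured RNA and hold no methylation values. Printed here with CpG in capitals are the window of Mrc1 (chr2:14229164-14229463, plus strand, 3 CpG), the 2 windows of Dab2 (chr15:6299539-6299838 with 2 CpG and chr15:6386498-6386797 with 19 CpG, plus strand), and that of Timd4 (chr11:46810549-46810848, plus strand, 5 CpG), whose lung ratio had no common direction over the arrays.
Mrc1: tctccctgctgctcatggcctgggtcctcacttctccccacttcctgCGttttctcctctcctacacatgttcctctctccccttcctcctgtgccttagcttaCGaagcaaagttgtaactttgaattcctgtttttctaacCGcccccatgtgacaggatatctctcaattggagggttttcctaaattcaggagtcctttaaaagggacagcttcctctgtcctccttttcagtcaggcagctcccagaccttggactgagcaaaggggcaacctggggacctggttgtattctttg
Dab2 first window: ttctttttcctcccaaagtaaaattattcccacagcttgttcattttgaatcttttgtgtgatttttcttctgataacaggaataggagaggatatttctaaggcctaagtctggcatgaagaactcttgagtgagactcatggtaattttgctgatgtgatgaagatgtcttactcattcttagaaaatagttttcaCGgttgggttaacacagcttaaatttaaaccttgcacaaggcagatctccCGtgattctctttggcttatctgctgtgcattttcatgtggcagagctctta
Dab2 second window: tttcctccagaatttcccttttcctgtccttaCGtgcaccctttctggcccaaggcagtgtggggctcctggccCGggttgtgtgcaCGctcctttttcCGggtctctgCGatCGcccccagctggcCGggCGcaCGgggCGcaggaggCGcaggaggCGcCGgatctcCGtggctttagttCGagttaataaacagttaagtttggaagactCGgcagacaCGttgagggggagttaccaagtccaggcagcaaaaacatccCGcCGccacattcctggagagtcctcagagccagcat
Timd4: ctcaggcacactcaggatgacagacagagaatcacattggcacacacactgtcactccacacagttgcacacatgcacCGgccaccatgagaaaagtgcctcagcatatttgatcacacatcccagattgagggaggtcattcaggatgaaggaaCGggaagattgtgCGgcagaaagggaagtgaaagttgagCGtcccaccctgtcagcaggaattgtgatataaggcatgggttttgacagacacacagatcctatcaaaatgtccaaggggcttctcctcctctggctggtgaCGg
The second Dab2 window had more CpG than 71.9% of all windows, and the first more than 14.1%. The windows of Mrc1 and Timd4 had more than 23.3% and 38%.

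Motifs of macrophage transcription factors were searched on both strands as GAGGAAGT for PU.1, TGANTCA for AP-1 and TGCTGAC for a MAF half-site. AP-1 letters occurred in 3 of the 12 member windows, of 3 genes, and in 7.81% of all windows. PU.1 letters occurred in 1 member window and 3.2% of all, and the MAF half-site in 1 member window, that of Timd4, and 4.67% of all. The windows of Cd209f (chr8:4105715-4106014, minus strand) and of Slco2b1 (chr7:99711291-99711590, minus strand) are shown with the matches in capitals, Cd209f for a lone AP-1 match and Slco2b1 because its PU.1 and AP-1 matches overlap by their shared T.
Cd209f: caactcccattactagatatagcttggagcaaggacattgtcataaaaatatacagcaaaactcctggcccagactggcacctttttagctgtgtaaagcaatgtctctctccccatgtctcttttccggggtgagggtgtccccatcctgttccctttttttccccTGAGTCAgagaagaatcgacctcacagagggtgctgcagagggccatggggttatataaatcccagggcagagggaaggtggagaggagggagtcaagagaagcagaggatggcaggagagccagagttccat
Slco2b1: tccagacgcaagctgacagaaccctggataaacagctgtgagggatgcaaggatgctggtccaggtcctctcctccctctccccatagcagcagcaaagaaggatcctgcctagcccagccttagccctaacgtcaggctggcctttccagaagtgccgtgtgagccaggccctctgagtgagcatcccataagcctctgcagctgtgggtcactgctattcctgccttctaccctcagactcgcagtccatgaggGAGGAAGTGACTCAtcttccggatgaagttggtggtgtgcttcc
The AP-1 match began 83 bases before the start in Cd209f and 13 bases after it in Slco2b1, where the PU.1 match began 6 bases after it. A window of Folr2 (chr7:101845282-101845581, minus strand) held the AP-1 letters 74 bases before the start. Such a match is a description of the letters.

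Mrc1 encodes the mannose receptor, a C-type lectin that takes up glycoproteins ending in mannose. Its probe lies on chromosome 2 from 14253273 to 14253332 (mm9, plus strand). The log2 ratio in lung was 3.52, 2.49 and 2.34 on replicates 1, 2 and 3, a 6.88-fold difference, and all 3 arrays lay far above 0. The normalised log2 level was 13.96, 13.41 and 13.66 in treated lung, against 10.44, 10.92 and 11.32 in mock lung. Mrc1 was thus bright in both lung groups, and the groups did not overlap. The marrow ratio was -0.09, -0.05 and -0.15, with levels of 7.10, 6.97 and 7.08 in treated cells and 7.19, 7.03 and 7.22 in mock cells, which overlapped. All 12 Mrc1 signals were well above background. The level in treated lung was 98.7-fold that in treated marrow, and the level in mock lung 13.4-fold that in mock marrow. Marrow signals less local background were low, 40.1 to 69.6 units in treated and 66.2 to 73.6 in mock cells. Those of the Cd163 probe, not above background, were 14.3 to 21.7 and 42.0 to 47.6, so both folds are approximate.

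Cd209f belongs to the mouse family of C-type lectins related to DC-SIGN. Its probe lies on chromosome 8 from 4102798 to 4102857 (mm9, minus strand). The lung ratio was 3.79, 1.84 and 1.83, with a mean of 2.49 ± 1.13 (SD, n = 3), a 5.61-fold difference and the widest spread among the 7 members that were higher. Without lung replicate 1 the mean was 1.84. The level was 10.91, 9.92 and 10.82 in treated lung, against 7.11, 8.08 and 8.98 in mock lung, so the treated arrays all lay above the mock arrays. In marrow the ratio was -0.16, -0.45 and -0.43, below 0 on every array. Marrow signals were well above background on 0 of 3 treated and 2 of 3 mock arrays, and with the processed signals of the scanner software the marrow ratio was -2.26. Cd209f was at least 15.9-fold higher in treated lung than in treated marrow, a bound against the background level, and its mock lung level was 2.24-fold its mock marrow level.

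Lyve1 encodes a hyaluronan receptor, known also from lymphatic endothelium, and its probe lies on chromosome 7 from 117994171 to 117994230 (mm9, minus strand). The lung ratio was 2.92, 2.28 and 2.38, a 5.76-fold difference (mean 2.53 ± 0.35, SD, n = 3). The level was 11.05, 11.19 and 11.43 in treated lung, against 8.13, 8.91 and 9.05 in mock lung, with no overlap. In marrow the ratio was 0.09, -0.12 and -0.01, and no marrow array had a signal well above background. Where a probe was not well above background on any array of a group, its fold is a lower bound, taken against the higher of its own level and the lowest level that was well above background, and open to dye bias without exchanged dyes. By that rule Lyve1 was at least 27.4-fold higher in treated lung than in treated marrow, and at least 4.72-fold higher in mock lung than in mock marrow.

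Stab1 encodes stabilin-1, a scavenger receptor that takes up modified lipoprotein and matrix proteins, and its probe lies on chromosome 14 from 31952288 to 31952347 (mm9, minus strand). Its lung ratio was 2.47, 1.55 and 1.82, a 3.86-fold difference (mean 1.95 ± 0.47, SD, n = 3), the smallest of the 7 that were higher. The level was 13.11, 12.48 and 12.97 in treated lung, against 10.64, 10.92 and 11.15 in mock lung, and the groups did not overlap. The marrow ratio was 0.10, 0.25 and -0.07, with all 6 signals well above background and overlapping groups. Stab1 and Mrc1 were the only members well above background on every array in both channels of both tissues. The Stab1 level in treated lung was 49.8-fold that in treated marrow, and in mock lung 13.8-fold that in mock marrow. Its marrow signals less local background were low, 60.9 to 86.5 units in treated and 62.3 to 69.4 in mock cells, so both folds are approximate.

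Cd163 encodes the scavenger receptor for complexes of haemoglobin and haptoglobin and is a defining marker of many tissue macrophages. Its probe, on chromosome 6 from 124270436 to 124270495 (mm9, plus strand), was not well above background on any of the 6 arrays in either channel. Its level was 6.46, 6.46 and 6.48 in treated lung, against 6.33, 6.37 and 6.36 in mock lung, and lay between 6.37 and 6.61 in marrow. These values give no order of the groups, and Cd163 went into no fit.

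Folr2 encodes the beta folate receptor, a lipid-anchored surface protein of resident macrophages, and its probe lies on chromosome 7 from 108988771 to 108988830 (mm9, minus strand). Its lung ratio was 3.38, 2.26 and 1.86, a 5.66-fold difference (mean 2.50 ± 0.79, SD, n = 3). The level was 12.35, 11.67 and 12.18 in treated lung, against 8.97, 9.41 and 10.32 in mock lung. The mock arrays were farther apart than the treated ones, and the groups did not overlap. In marrow the ratio was -0.02, -0.02 and 0.19 with no signal well above background, so that Folr2 was at least 50.2-fold higher in treated lung than in treated marrow and at least 9.05-fold higher in mock lung than in mock marrow.

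Timd4 encodes Tim-4, a receptor for phosphatidylserine on dying cells that marks long-lived resident macrophages. Its probe lies on chromosome 11 from 46657173 to 46657232 (mm9, plus strand). The lung ratio was 1.53, -0.09 and -1.43, so the 3 arrays gave 3 different answers. The level was 8.87, 7.50 and 7.60 in treated lung, against 7.34, 7.59 and 9.02 in mock lung, with all 6 signals well above background and overlapping groups. The mean ratio of 0.00 became -0.76 without lung replicate 1 and 0.72 without lung replicate 3. In marrow the ratio was 0.01, 0.23 and 0.17 with no signal well above background, and Timd4 was at least 3.01-fold higher in treated lung than in treated marrow and at least 3.21-fold higher in mock lung than in mock marrow.

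Dab2 encodes a clathrin adaptor that gathers lipoprotein receptors and other cargo receptors, and its probe lies on chromosome 15 from 6390616 to 6390675 (mm9, plus strand). Its lung ratio was 3.03, 2.79 and 2.87, a 7.44-fold difference and the closest agreement between arrays among the 7 members that were higher. The level was 12.31, 12.22 and 12.59 in treated lung, against 9.28, 9.43 and 9.72 in mock lung, with no overlap. The marrow ratio was 0.15, 0.31 and 0.37, above 0 on every array (mean 0.28 ± 0.12, SD, n = 3). Its level was 6.52, 6.73 and 6.82 in treated marrow, against 6.37, 6.41 and 6.44 in mock marrow, with no overlap. The marrow signal was well above background on 1 of 3 treated and 0 of 3 mock arrays. The 1.21-fold difference thus rests on signals near background and is not read as a bound. The marrow ratio was 2.27 with the processed signals of the scanner software and 0.07 with median centring. The treated lung level was 51.5-fold the treated marrow level, and the mock lung level at least 8.38-fold the mock marrow level.

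Slco2b1 encodes an uptake carrier for organic anions such as bile salts and steroid sulphates. It had 2 overlapping probes on chromosome 7 (mm9, minus strand), from 106806923 to 106806982, which was brighter and stands for the gene, and from 106806901 to 106806960. The lung ratio of the brighter probe was 3.34, 2.46 and 2.36, a 6.59-fold difference, and that of the other was 3.03, 2.25 and 2.22. The probes share most of their bases and are not independent. The brighter probe's level was 11.59, 11.55 and 11.69 in treated lung, against 8.25, 9.09 and 9.33 in mock lung. The treated arrays lay close together and all above the mock arrays, which were farther apart. In marrow its ratio was -0.01, -0.12 and 0.05 with no signal well above background, so that Slco2b1 was at least 37.2-fold higher in treated lung than in treated marrow and at least 5.53-fold higher in mock lung than in mock marrow.

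**Figure D2:**
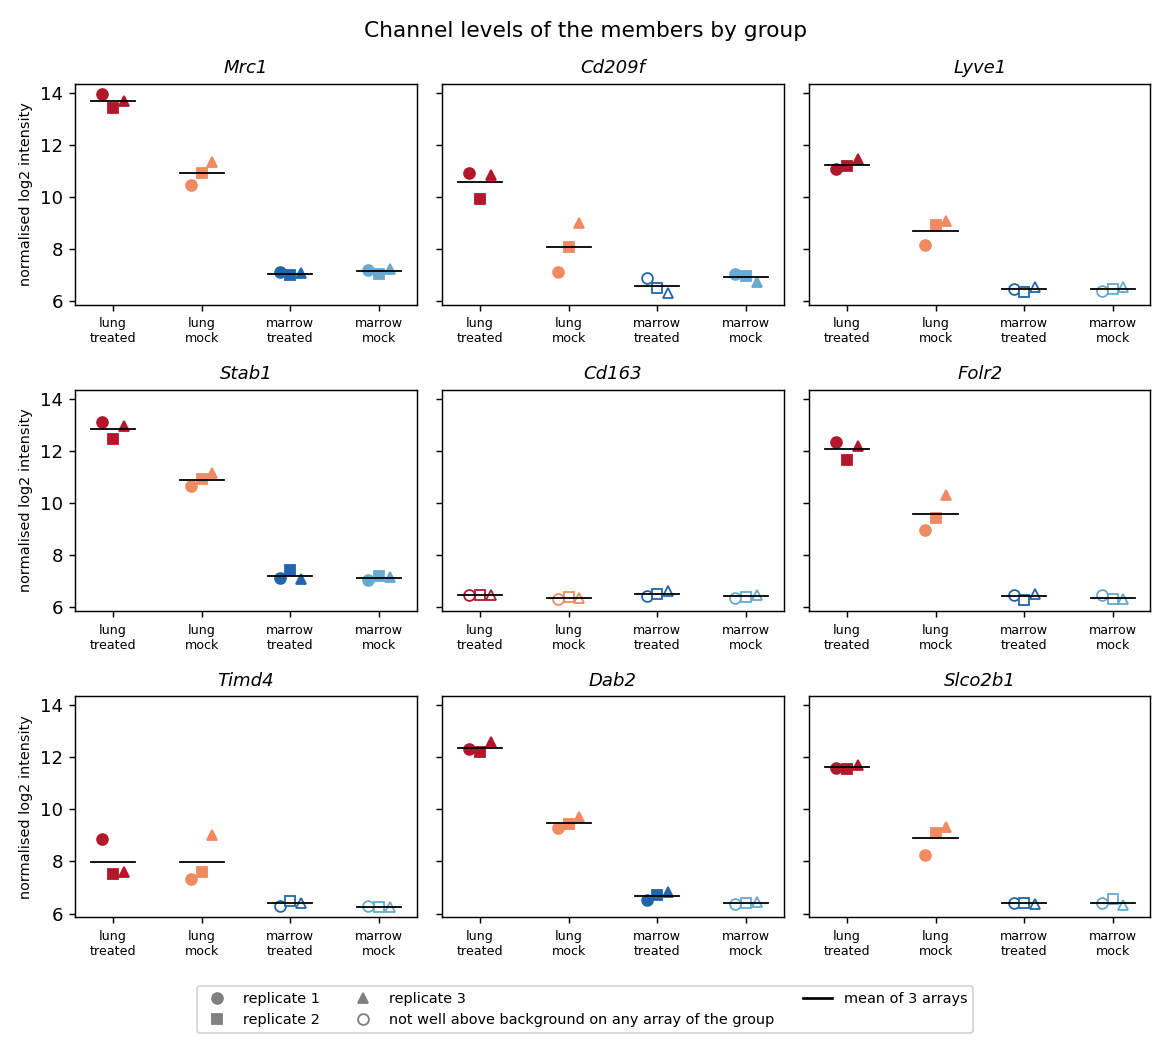
Normalised log2 intensity (vertical axis) of each member in treated lung, mock lung, treated marrow and mock marrow, with 1 symbol per array and the mean as a bar. Open symbols mark a group in which no array had a signal well above background. Apart from Cd163, every member was well above background in both lung groups, and the treated lung symbols lie above the mock lung symbols for all of these but Timd4. The share of all genes with such a separation was not counted. The members were chosen by these values, so nothing is read from it.

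The members also shared an order of arrays within lung. The normalised mock lung level was lowest on replicate 1 and highest on replicate 3 for all 8 tested members, an order found in 20.5% of all genes tested. In mock signals less local background, Dab2 (711, 674 and 800) and Timd4 (112.3, 110.6 and 389.6) were lowest on replicate 2. The lung ratio was highest on replicate 1 for all 8, as for 37.5% of all genes. A low mock level raises the ratio, so the count for the ratio follows in part from that for the mock level. The normalised treated lung level was lowest on replicate 2 for 7 of the 8, as for 32.7% of all genes. The 8 genes were read on the same 3 arrays and chosen by these values, so the counts are a description. The SD between arrays was larger in mock lung than in treated lung for 7 of the 8, the exception being Stab1, and for 47.7% of all genes. A mock RNA held 1 to 2 mice and a treated RNA 3 to 6, and the part of this in the spread was not tested.

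Measured by the root mean square difference of the 6 log2 ratios from the median of the 8 tested members, the nearest genes that are no members were B3galnt1 (0.14), C1qb (0.16), C1qa (0.16), Fcrls (0.21), C1qc (0.22), Ccl12 (0.22), Neurl1a (0.24), Zmynd15 (0.26), Cxcl13 (0.28) and Mertk (0.29). C1qa, C1qb and C1qc encode the chains of complement C1q, and Ccl12 and Cxcl13 are chemokines. Mertk is a receptor kinase that binds dying cells through bridging proteins. The lung ratio averaged 2.42 ± 0.61 for B3galnt1, 2.49 ± 0.54 for C1qb and 2.33 ± 0.59 for C1qa, and the marrow ratio 0.10 ± 0.11, 0.03 ± 0.27 and 0.03 ± 0.15 for the same genes (SD, n = 3). B3galnt1, Cxcl13 and Mertk were not well above background on any marrow array, and C1qa and Ccl12 on no mock marrow array. The corresponding distance was 0.15 for Folr2 and Slco2b1, 0.16 for Lyve1, 0.20 for Mrc1, 0.41 for Cd209f, 0.44 for Dab2, 0.45 for Stab1 and 1.86 for Timd4.

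**Figure D3:**
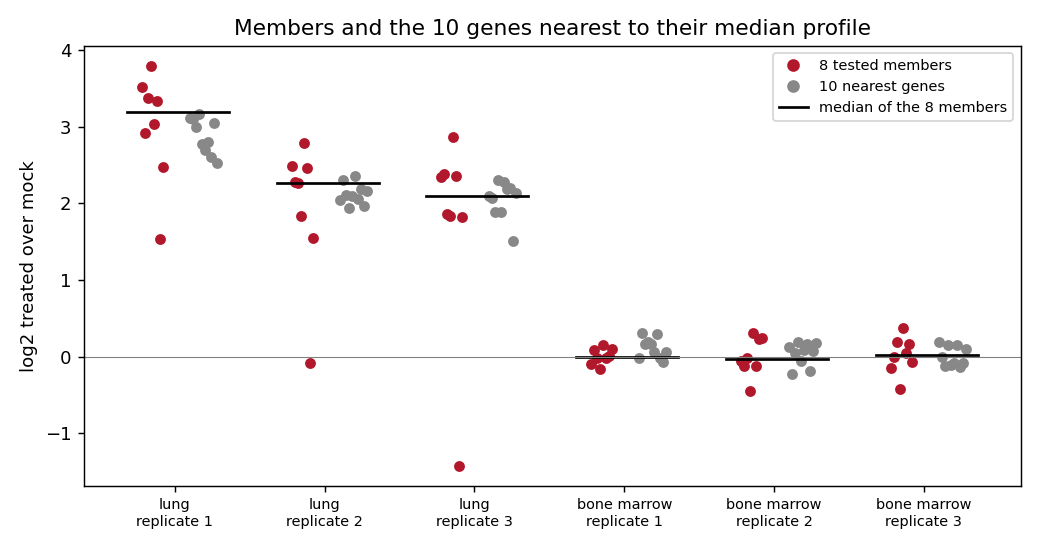
Log2 ratio of treated over mock (vertical axis) on each of the 6 arrays (horizontal axis) for the 8 tested members in red and the 10 nearest genes in grey, with the median of the 8 members as a black bar. The median lies at 3.19, 2.27 and 2.10 on lung replicates 1, 2 and 3 and near 0 in marrow, and the red points far below the rest in lung are Timd4.

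Other genes of the same pathway were read from lists of genes that are no members, chosen with earlier results of these data known. The list counts stand beside the shares of all genes tested, 19.9% higher and 14% lower in lung, and 7.25% and 7.12% in marrow. In lung, 17 of 36 tested other scavenger and endocytic receptors rose, 2 fell and 17 did not pass, with a median log2 ratio of 0.43 against 0.01 for all genes. Mertk rose by 2.28 ± 0.22 (SD, n = 3, limma adjusted p = 1.45e-05), Axl, another receptor kinase for dying cells, by 1.66 ± 0.20, and Cd36, a scavenger receptor for lipids, by 1.47 ± 0.18. Mgl2, a galactose lectin, rose by 1.37 ± 0.09 and Msr1, scavenger receptor A, by 0.87 ± 0.02 (adjusted p from 7.58e-05 to 0.000215 for these 4). Among those that fell was Scarb1, a receptor for high-density lipoprotein, at -0.59 ± 0.03. In marrow 3 rose and 3 fell: Axl rose by 1.71 ± 0.37, Mgl2 by 0.33 ± 0.22 and Cd93 by 0.69, while Lrp1, a large lipoprotein receptor, was at -1.01 ± 0.36 and Scarb1 at -0.41 ± 0.12. The third that fell, Pla2r1, was not well above background on any treated marrow array and was at least 1.25-fold lower there than in mock marrow (limma adjusted p = 0.0284). Cd93 and Pla2r1 were named after their values were seen. With median centring 13 of the 36 passed in lung, all higher, and 0 in marrow, where Scarb1 was at 0.087. The lung response minus the marrow response passed as higher for 15 of the 36 and as lower for 0, beside 9.78% and 5.44% of all genes tested, and 21 did not pass.

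Of the clathrin and early endosome machinery, with which Dab2 works, 17 of 37 tested genes rose in lung, 1 fell and 19 did not pass, with a median of 0.23. Over all genes tested 19.9% rose and 14% fell in lung, and 7.25% and 7.12% in marrow. Itsn1, a scaffold of coated pits, rose by 1.01 ± 0.20, Arrb2, an arrestin adaptor, by 0.97 ± 0.09, Bin1, a membrane-bending protein, by 0.64 ± 0.07, the clathrin heavy chain Cltc by 0.61 ± 0.16 and the light chain Cltb by 0.49 ± 0.08 (SD, n = 3, limma adjusted p from 0.000306 to 0.00111). The gene that fell was Sh3gl1, named after its value was seen, at -0.26. In marrow 1 of 37 rose, Itsn1 by 0.52 ± 0.22, and 6 fell, among them the endosome tether Eea1 at -0.35 ± 0.12 and Itsn2 at -0.32 ± 0.12. The marrow ratio of Itsn1 was -0.048 as the mean over its probes, and that of Itsn2 was 0.11 with median centring. With median centring 2 of these genes passed in lung and 0 in marrow, and without bone marrow replicate 3 the marrow count was 0.

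Among genes of haem and iron handling, the pathway of Cd163's cargo, 7 of 17 tested rose in lung and 2 fell, with a median of 0.27. The shares of all genes tested were 19.9% higher and 14% lower in lung, and 7.25% and 7.12% in marrow. The ferritin heavy chain Fth1 rose by 1.40 ± 0.16, the iron exporter Slc40a1 by 0.75 ± 0.25 and the haem transporter Slc48a1 by 0.38 ± 0.13, while Hp, which encodes haptoglobin, was at -1.02 ± 0.45 and the iron sensor Ireb2 at -0.39 ± 0.07 (SD, n = 3, limma adjusted p from 0.00163 to 0.00511). In marrow Slc48a1 rose by 0.36 ± 0.07 and the transferrin receptor Tfrc was at -0.38 ± 0.19. Hpx, haemopexin, was the third that passed, at least 1.24-fold higher in treated marrow than in mock marrow, where it was not well above background on any array (limma adjusted p = 0.0327). With median centring 1 gene passed in lung and 0 in marrow, and without bone marrow replicate 2 the marrow count was 0.

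Organic anion and folate transport, the roles of Slco2b1 and Folr2, had 4 of 15 tested genes higher in lung and 1 lower, with a median of 0.11. All genes tested had 19.9% higher and 14% lower in lung, and 7.25% and 7.12% in marrow, so nothing is read from these counts. The anion exporter Abcc3 rose by 1.82 ± 0.15, the prostaglandin carrier Slco2a1 by 1.31 ± 0.18, the exporter Abcc1 by 0.81 ± 0.15 and the folate transporter Slc46a1 by 0.75 ± 0.32, while Abcc4 was at -0.38 ± 0.11 (SD, n = 3, limma adjusted p from 2.66e-05 to 0.00546). In marrow 3 rose: the reduced folate carrier Slc19a1 by 0.95 ± 0.41, Slco4a1 by 0.62 ± 0.04 and Abcc1 by 0.50 ± 0.28. With median centring 2 genes passed in lung and 0 in marrow.

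Other resident macrophage genes were higher in lung for 28 of 32 tested, with 1 lower, 3 that did not pass and a median of 1.51. Over all genes tested 19.9% were higher and 14% lower in lung, and 7.25% and 7.12% in marrow. The chemokine Ccl7 rose by 3.29 ± 0.05 (SD, n = 3, limma adjusted p = 3.2e-06), Pf4, a chemokine of platelets and macrophages, by 3.04 ± 0.46, Ccl12 by 2.44 ± 0.23, the membrane protein Ms4a7 by 2.10 ± 0.27 and the complement receptor C3ar1 by 1.87 ± 0.24. The gene that fell was F13a1, named after its value was seen, at -0.49. In marrow 1 rose and 6 fell. Selenop, a selenium carrier, was at -1.36 ± 0.15, Csf1r, the receptor for macrophage growth factor, at -1.14 ± 0.29 and Tmem176b at -0.58 ± 0.25, while Cd38, named after its value was seen, rose by 1.17. In lung Selenop rose by 1.32 ± 0.37, Csf1r by 0.76 ± 0.23 and Tmem176b by 0.65 ± 0.08. The lowest marrow value of the list was that of Cx3cr1, named after its value was seen, at -1.71 ± 0.97, and its lung value of 0.96 ± 0.43 did not pass (limma adjusted p = 0.0548). The lung response minus the marrow response passed as higher for 26 of the 32 and as lower for 1, which was F13a1. Over all genes tested these shares were 9.78% and 5.44%. With median centring 22 of the 32 passed in lung, all higher, and 0 in marrow.

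**Figure D4:**
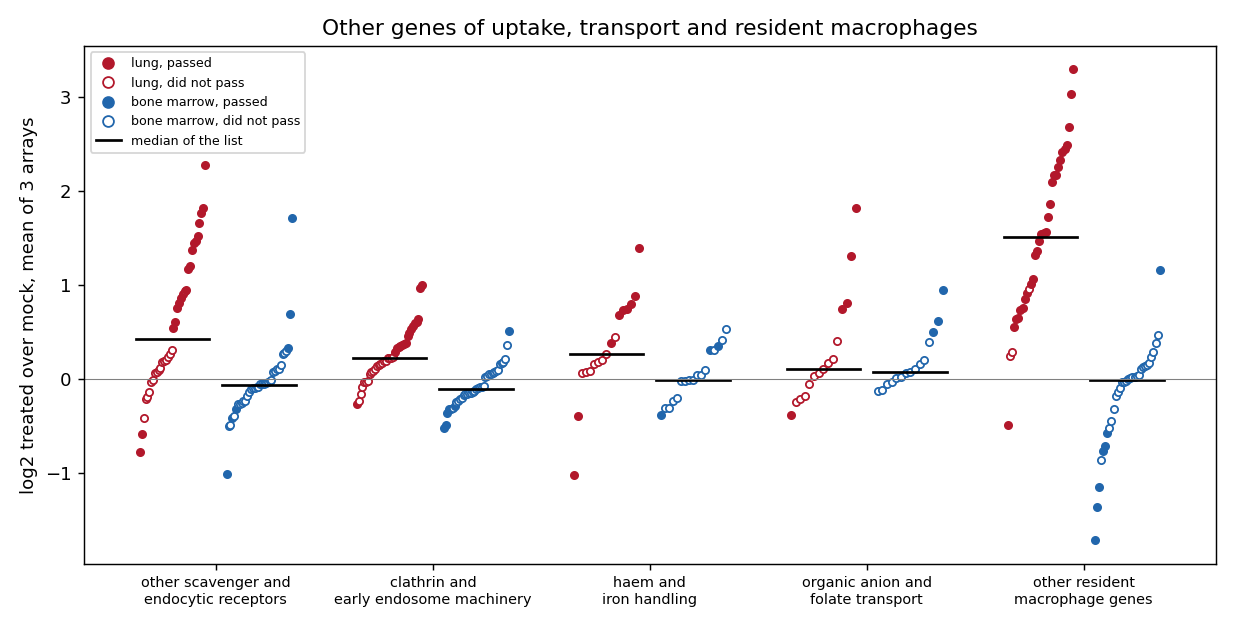
Mean log2 ratio of treated over mock (vertical axis) for each tested gene of the 5 lists (horizontal axis), lung in red left of bone marrow in blue. Filled points passed at an adjusted p under 0.05, open points did not, and the black bars are list medians. The medians in lung are 0.43, 0.23, 0.27, 0.11 and 1.51 from left to right, and those in marrow lie between -0.10 and 0.08.

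Markers of the sorted cells were present in every group: all 11 measured genes of the monocytic MDSC and monocyte list were well above background on every array. In lung Itgam rose by 0.64 ± 0.24 and Csf1r by 0.76 ± 0.23, while Ccr2 was at -1.12 ± 0.46 and Plac8 and S100a4, named after their values were seen, at -1.14 and -0.80. The macrophage marker Adgre1 rose by 1.06 ± 0.17, and Ly6c1 was at -0.25 ± 0.45 and did not pass (SD, n = 3). The summed level of the list ranged from 241100 to 304500 normalised intensity units in treated lung and from 293700 to 302500 in mock lung.

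Markers of several other cell types also passed in lung, in both directions, and their part in the members' ratios was not tested. Of all genes tested in lung, 19.9% were called higher and 14% lower. Of the alveolar macrophage markers 13 of 15 tested rose and 0 fell, and their summed level was 152900 to 290000 in treated lung against 105800 to 129500 in mock lung. The same sum was 115700 to 139800 in treated marrow and 110400 to 136800 in mock marrow. It is thus not read as an amount of alveolar macrophages. Plet1 rose by 2.04 ± 0.55, Itgax by 1.42 ± 0.22 and Il1rn by 0.74 ± 0.12 (SD, n = 3). Of the lung epithelial markers 9 of 12 rose and 0 fell, with sums of 62030 to 95940 in treated lung against 17340 to 32090 in mock lung, where Epcam and Nkx2-1 were not above background on any array. The surfactant proteins Sftpa1 and Sftpd rose by 2.32 ± 0.62 and 2.26 ± 0.66, and the epithelial cadherin Cdh1 by 1.33 ± 0.12. Of the lymphatic and sinusoidal endothelial markers, a cell type that also carries Lyve1 and Stab1, 8 of 12 rose and 1 fell (Mmrn1, -0.33, named after its value was seen), with sums of 24570 to 27650 in treated lung against 10320 to 12340 in mock lung. Pdpn rose by 1.94 ± 0.35, Ramp2 by 1.58 ± 0.24 and Cldn5 by 1.51 ± 0.18, while Reln was not above background in either lung group and Flt4 not in mock lung. The 3 that did not pass, named after their values were seen, were Stab2 at -0.21, Clec4g at -0.12 and Kdr at -0.20. Prox1 did not meet the filter for testing. The lymphatic and sinusoidal genes of the list thus had no common direction.

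The marker counts that follow also stand beside 19.9% of all genes tested called higher in lung and 14% lower. Of the mature neutrophil markers 7 of 11 rose and 0 fell, with sums of 80480 to 159900 in treated lung against 33950 to 64810 in mock lung. Mmp9 was at 1.76 ± 0.60, Wfdc21 at 1.68 ± 0.31 and Csf3r at 0.53 ± 0.14 (SD, n = 3). B cell markers went the other way: 8 of 9 fell and 1 rose (Cd22, 0.35, named after its value was seen), with sums of 2701 to 3006 in treated lung against 4969 to 7309 in mock lung. Ms4a1 was at -2.17 ± 0.59, Pou2af1 at -1.86 ± 0.22 and Cd79a at -1.33 ± 0.29. Of the natural killer and T cell markers 1 rose and 4 fell (sums 4418 to 5181 in treated lung against 5556 to 5831 in mock lung), with Gzma at -1.32 ± 0.40, Eomes at -0.42 ± 0.07, and Cd3e at -0.24 and Cd4 at 0.33, both named after their values were seen. Ncr1 was not well above background on any treated lung array and was at least 1.32-fold lower there than in mock lung (limma adjusted p = 0.002). Of the 10 fibroblast markers 3 rose and 3 fell (sums 7558 to 10610 in treated lung against 10360 to 14170 in mock lung), with Pi16 at -1.57 ± 0.48, Lum at -0.51 ± 0.10 and Mfap5 at 0.68 ± 0.34, and Dcn, Fbln1 and Dpt, named after their values were seen, at -0.56, 0.40 and 0.28. The median of these markers in lung was 0.43, opposite in direction to the sums. In marrow the sums were 7823 to 10770 in treated and 12050 to 16190 in mock cells.

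Under the 9 alternatives that could move every lung ratio, those of the 7 members that were higher lay between 1.69 and 3.11. The lowest was Stab1 without lung replicate 1 and the highest Dab2 with median centring. The ratio of Cd163, not above background, ran from -0.09 to 0.49 and that of Timd4 from -0.76 to 0.72, so both took either sign.

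**Figure D5:**
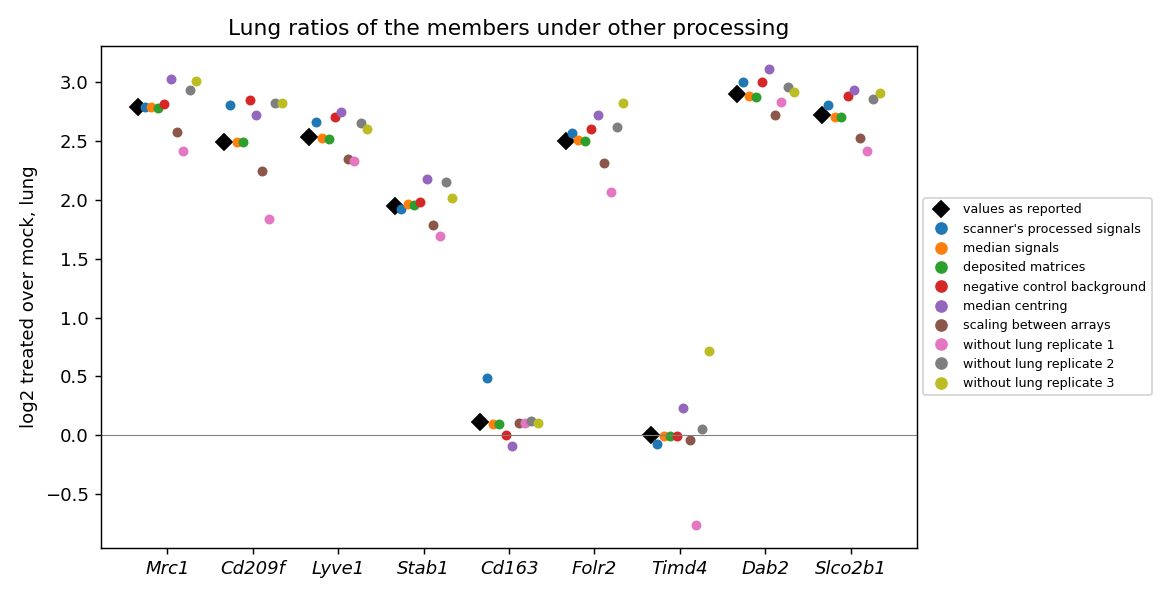
Mean lung log2 ratio of treated over mock (vertical axis) of each member (horizontal axis) as reported (black diamond) and under 9 alternatives (coloured points). For the 7 members that were higher, every point lies between 1.69 and 3.11. The points of Timd4 run from -0.76 to 0.72, and those of Cd163 from -0.09 to 0.49.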

How the data were processed

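RNA of M-MDSCs sorted from lung and bone marrow was measured on 6 dual-colour Agilent arrays. The deposited scanner output gives each spot's intensity and local background. It was made by Feature Extraction 10.7.3.1 of Agilent and places probes on mm9, per the file headers. The deposited matrices hold the authors' log2 ratios, and the submitters' processing notes name limma. Its settings are not given in the sources used here. Values of these matrices correlated at 0.9995 to 1 with normexp and loess on median signals.

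With limma 3.58.1 (R 4.3.3), log2 ratios were computed here from mean spot signals less median local background, by normexp (offset 50) and loess within arrays. Control and outlier spots were left out, spots of a probe were averaged, and the brightest kept probe stood for a gene. Channel levels were also equalised between arrays (Aquantile). All 6 arrays entered 1 limma fit with a mean per tissue (4 residual and 3.49 prior degrees of freedom), and p-values were adjusted by Benjamini-Hochberg over 22127 genes with a threshold of 0.05. They measure a spread between these arrays that is shared by lung and marrow for each gene and moderated over genes. A lung p thus does not rest on the lung spread alone. The fit was tested on simulated data.

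The members and gene lists were chosen with earlier results of these data known. The members entered the fit, and their calls are given only as counts beside those of all genes. Named are all members, up to 5 genes per list with the smallest p in lung and 3 in marrow, 3 per marker list, 6 myeloid genes where measured, and the 10 genes nearest to the members' median profile. Alternatives were other signals and backgrounds, the deposited matrices, median centring, scaling between arrays, other filters, the mean over probes, a fit per tissue, each array left out and a replicate block. Some genes counted in the lists are not reported here by name. Exons and UTRs behind the probes were not analysed here. Promoter windows are RefSeq's (GRCm38.p6).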

Additional observations from a re-analysis of the deposited data

Results flagged for a closer look

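The lung response minus the marrow response (log2) passed the test of the difference itself for 42 of the genes named from the lists, with limma adjusted p from 3.17e-05 to 0.048. These genes were named mostly for a small p in lung or marrow on these same arrays, so the count is no independent support. Over all genes tested the difference passed as higher for 9.78% and as lower for 5.44%. Among uptake genes the difference was 2.17 for Mertk, 1.57 for Cd36, 1.13 for Lrp1, 1.05 for Msr1 and 1.04 for Mgl2. Among genes of coated pits and endosomes it was 1.16 for Arrb2, 0.72 for Eea1, 0.71 for Cltc, 0.54 for Bin1 and 0.32 for Cltb. For iron and transport genes it was 1.05 for Slc40a1, 0.66 for Tfrc, -1.01 for Hp, 1.74 for Abcc3, 1.43 for Slco2a1 and -0.41 for Slco4a1. For resident macrophage and myeloid genes it was 3.43 for Ccl7, 2.68 for Selenop, 2.57 for Pf4, 2.43 for Ccl12, 1.92 for Ms4a7, 1.90 for Csf1r, 1.63 for C3ar1, 1.23 for Tmem176b, 0.92 for Adgre1 and -0.90 for Ly6c1.

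Among markers of other cell types the difference was 1.84 for Plet1, 1.11 for Itgax and 0.45 for Il1rn of alveolar macrophages, and 1.81 for Pdpn, 1.66 for Ramp2 and 1.26 for Cldn5 of endothelium. It was 2.44 for Sftpa1, 2.25 for Sftpd and 0.62 for Cdh1 of epithelium, 1.91 for Mmp9 and 1.42 for Wfdc21 of neutrophils, and -0.51 for Lum of fibroblasts. It was -2.38 for Ms4a1, -2.01 for Pou2af1 and -1.14 for Cd79a of B cells, and -1.73 for Gzma. Of the 42 genes, 8 were not well above background in either marrow channel: Mertk, Pdpn, Ramp2, Sftpa1, Sftpd, Lum, Ms4a1 and Pou2af1. A further 6 were not in mock marrow: Pf4, Ccl12, Plet1, Itgax, Cldn5 and Gzma. Among the members, Mrc1 and Cd209f had every lung ratio above 0 and every marrow ratio below 0, with differences of 2.88 and 2.83. The share of all genes with that pattern was not counted. The marrow ratios of Mrc1 lay between -0.15 and -0.05, with overlapping treated and mock levels. Cd209f was not well above background on any treated marrow array, so its difference rests on a signal at background. These ratios were among the values that chose the members, and no test is given for either difference. Tissue and slide cannot be told apart in any of these values.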

How the results depend on the processing

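Median centring moved the median of all genes tested to 0.12 in lung and 0.20 in marrow (log2), and changes under it are relative to those shifts. Genes passing at an adjusted p under 0.05 (limma) were then 963 in lung (890 higher, 73 lower), against 7510 as reported (4408 higher, 3102 lower), and 0 in marrow (3954 at an unadjusted p under 0.05), against 3181. For the lung response minus the marrow response they were 33 (28 higher, 5 lower), against 3367 (2164 higher, 1203 lower). In lung 2 genes of clathrin and early endosomes, 1 of haem and iron and 2 of organic anion and folate transport then passed, and in marrow 0 of each of the 5 lists, with 6 other scavenger and endocytic receptors, 5 clathrin genes, 6 haem genes, 4 transport genes and 11 resident macrophage genes at an unadjusted p under 0.05. The member median in marrow was then -0.16, Cd163 was at -0.085 in lung and -0.13 in marrow, and Timd4 at -0.11, Scarb1 at 0.087 and Itsn2 at 0.11 in marrow. With the scanner's processed signals 6475 genes passed in marrow, 8 clathrin genes passed in lung, and the marrow lists held 11 scavenger receptors, 5 haem genes, 5 transport genes and 12 resident macrophage genes, with a member median of 0.34. With the negative control background 5092 genes and 6 transport genes passed in marrow, and with scaling between arrays 4 clathrin genes. With the mean over probes Itsn1 was at -0.048 in marrow. The cause of these shifts was not tested.

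With 1 array left out, 5131 to 7767 genes passed in lung, 980 to 4069 in marrow and 1496 to 2820 in the difference between tissues. The marrow count was 1567, 980 and 1193 without marrow replicates 1, 2 and 3 and 1909 without lung replicate 2, and the difference count 1962, 1496 and 2215 without marrow replicates 1, 2 and 3. Clathrin genes passing ranged from 11 (without lung replicate 3) to 20 in lung and from 0 to 9 in marrow, where they were 1, 2 and 0 without marrow replicates 1, 2 and 3. Scavenger receptors in marrow ranged from 3 (without marrow replicate 2 or lung replicate 2) to 7. Haem genes in marrow ranged from 0 (without marrow replicate 2) to 5 (without lung replicate 1), with 1 without lung replicate 2. Resident macrophage genes in marrow ranged from 3 (without marrow replicate 2) to 11 (without lung replicate 1), with 4 without marrow replicate 1. Same-numbered lung and marrow arrays correlated at 0.0004, 0.12 and 0.05 in their deviations, so the numbers were not taken as pairs. With a replicate block 2861 genes passed in the difference (1819 higher, 1042 lower). With a fit per tissue, which uses the spread of that tissue only, 6233 genes passed in lung and 2741 in marrow. Signals at background limit the marrow values of Lyve1, Folr2, Slco2b1, Timd4, Cd163, Cd209f and Dab2. The marrow signals of Mrc1 and Stab1 were above background but low.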
